A study of Mus musculus with 49 samples.

Results

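Mouse embryonic stem (ES) cells sorted in a late-S/G2 gate were set against cells sorted in a mid-S gate, by the contacts that single-cell Hi-C found in each cell. The members were all cells of the diploid 2i table that passed the authors' quality control and whose condition was 1CD_lS_G2 or 1CD_mS, whatever phase group the authors gave them. There were 326 late-S/G2-gate cells and 262 mid-S-gate cells, 588 in all, of 1992 passing cells in the table and 4098 in the series. Both gates hold the same diploid F1 hybrid line, a cross of 129/SV-Jae and castaneus mice, cultured without feeder cells in 2i, a medium whose inhibitors keep ES cells undifferentiated. The cells were fixed with formaldehyde, and nuclei were sorted after staining of DNA with Hoechst and, where required, of the protein Geminin with an antibody. The limits of the gates are not given in the sources used here, and only 1 line was used. No value in the table can check that a cell is an ES cell. The series maps chromosome folding through the cell cycle, and this pair of gates brackets the second stretch of DNA synthesis.

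Mammalian chromosomes copy their DNA in a set order. Gene-rich, active chromatin is copied early in S phase and compact, silent chromatin late, so that early regions first gain copies over late ones and then lose that lead once late regions are copied too. In G2 every region has been copied, and at mitosis chromosomes condense into compact arrays without compartments or domains. Hoechst reports the amount of DNA in a nucleus, and Geminin accumulates through S and G2 and is degraded during mitosis. The tables hold 15 features per cell and no values per gene, so no gene is named.

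The late-S/G2 gate came from the libraries diploid 25, with 158 passing cells, and diploid 26, with 162. The mid-S gate came from diploid 23, with 158 passing cells, and diploid 24, with 99. A further library, diploid 15_16_17_18, held 6 late-S/G2-gate and 5 mid-S-gate cells in 1 sequencing lane. Each of the 4 large libraries had a lane of its own, so for them lane and gate cannot be told apart. These 4 libraries used the same 192 index pairs, no cell had the same feature values as another, and the gates in the shared lane had no index pair in common. Of 192 cells listed in each large library, 82.3% passed in diploid 25, 84.4% in diploid 26, 82.3% in diploid 23 and 51.6% in diploid 24. A passing cell had a median of 340284 contacts in diploid 25 and 332229 in diploid 26, against 304648 in diploid 23 and 326910 in diploid 24. The labels do not say that libraries came from separate cultures, so every p-value measures only the spread between libraries. With 2 libraries against 2, an exact two-sided permutation test cannot go below p = 0.333, and no difference between the gates can pass 0.05. Each result is therefore given by its library values, its size and whether the libraries of the gates overlap. A lack of overlap is common even without a difference. Of 150 features simulated for 2 libraries against 2 with no difference, 32.7% did not overlap.

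The replication score was lower in late-S/G2-gate cells than in mid-S-gate cells in every large library. It is read here as the excess of coverage of early-replicating over late-replicating chromatin, although its scale is not defined and the lowest cell of the table is set at 1. The mean score was 1.133 in diploid 25 and 1.120 in diploid 26, against 1.281 in diploid 23 and 1.285 in diploid 24. The late-S/G2 libraries averaged 1.127 ± 0.00940 and the mid-S libraries 1.283 ± 0.00278 (SD, n = 2 each). The difference was -0.157, or -2.08 SD of single cells, with an exact p of 0.333, the smallest the design allows. The 4 library means fell into 2 pairs by gate, separated by far more than either pair's own spread.

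Single cells overlapped between the gates, but little. Scores ran from 1.033 over a median of 1.118 to 1.429 in diploid 25, and from 1.036 over 1.098 to 1.438 in diploid 26. In the mid-S gate they ran from 1.054 over a median of 1.299 to 1.456 in diploid 23, and from 1.053 over 1.298 to 1.434 in diploid 24. Both gates thus held cells near the bottom and near the top of the range, and the bulk of each lay at opposite ends. When each late-S/G2-gate cell was paired with each mid-S-gate cell, the late-S/G2-gate cell had the lower score in 89.5% to 91.8% of pairs over the 4 pairs of libraries. At or above the mid-S-gate median of 1.299 lay 17 of 326 late-S/G2-gate cells, 9 of them in the authors' early-S group and 8 in their late-S/G2 group. At or below the late-S/G2-gate median of 1.107 lay 12 of 262 mid-S-gate cells, which were spread over all 5 phase groups.

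**Figure D1:**
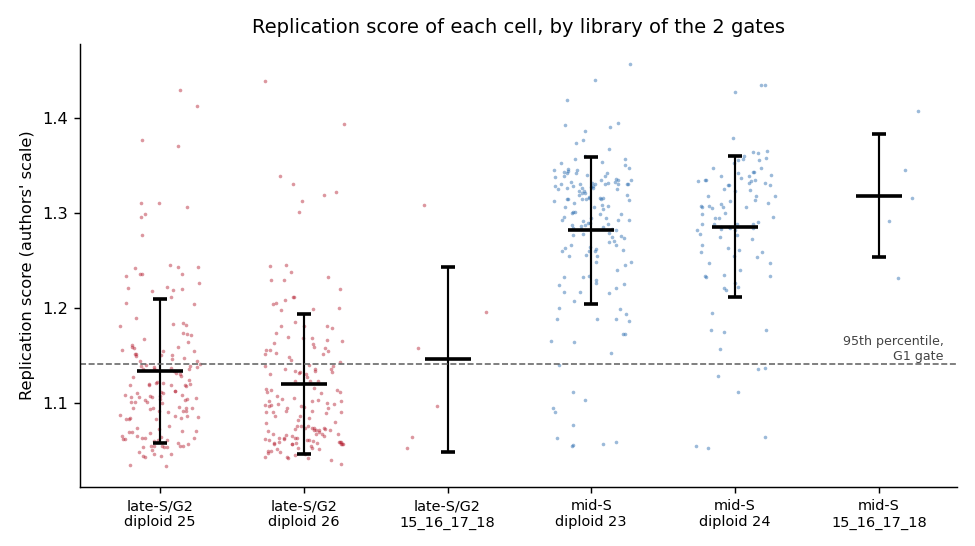
Replication score (vertical axis, authors' scale) of every passing cell as 1 point, by library, with late-S/G2-gate libraries on the left in red and mid-S-gate libraries on the right in blue; black bars give the mean and the SD over cells, and the dashed line is the 95th percentile of G1-gate cells. Means lie at 1.120 to 1.146 in the late-S/G2 gate and at 1.281 to 1.318 in the mid-S gate, and both gates hold single cells on the other side of the line.

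The small library that held both gates in 1 lane showed a difference in the same direction. The 6 late-S/G2-gate cells averaged 1.146, with scores between 1.052 and 1.308, and the 5 mid-S-gate cells averaged 1.318, with scores between 1.232 and 1.407. The difference within that lane was -0.172, close to the -0.157 found between the large libraries. With this library counted on each side beside the large ones, the exact p was 0.167, again the smallest the design allows. Depth moved with the score inside each gate, with Spearman's rho between score and contacts per cell of -0.31 in diploid 25 and -0.38 in diploid 26, against -0.38 in diploid 23 and -0.29 in diploid 24, over late-S/G2-group cells. When only cells with contacts between their 25th and 75th percentile were kept, the difference between gates was -0.147.

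Cells of the G1 gate, the gate for nuclei before DNA synthesis, gave a baseline for the score. The 95th percentile of 280 G1-gate cells was 1.141. The authors called 221 of them G1, 53 early-S and 6 late-S/G2, so this percentile is not one of G1-group cells alone. Above it lay 31.6% of late-S/G2-gate cells (exact 95% interval 26.6% to 36.9%), 93.1% of mid-S-gate cells (89.4% to 95.9%) and 56.9% of 420 cells of the condition NoSort. By library the share was 33.5% in diploid 25 and 29.01% in diploid 26, against 93.04% in diploid 23 and 92.9% in diploid 24. Of the late-S/G2-gate cells, 223 of 326 thus scored no higher than all but the top 5% of G1-gate cells. Intervals here and below cover counting error only.

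Across the 4 sort gates the score had a single peak, in the mid-S gate. Its library means averaged 1.081 ± 0.00532 in the G1 gate, 1.195 ± 0.0101 in the early-S gate, 1.283 ± 0.00278 in the mid-S gate and 1.127 ± 0.00940 in the late-S/G2 gate (SD, n = 2 each). The libraries of no gate overlapped those of another. The late-S/G2 gate lay below the early-S gate and above the G1 gate. The near-band share and insulation had other courses. The near-band share, the share of contacts at short distances, was 58.9% in the G1 gate, 72.1% in the early-S gate, 78.7% in the mid-S gate and 79.1% in the late-S/G2 gate. Insulation, a score for the separation of neighbouring domains, was 2.458 in the G1 gate, 2.508 in the early-S gate, 2.212 in the mid-S gate and 2.152 in the late-S/G2 gate. The large steps of the near-band share and of insulation thus lay before the mid-S gate. Without post-M and pre-M cells the near-band difference between the late-S/G2 and mid-S gates was 2.86 points, against 0.382 with them, and the insulation difference was -0.0145, against -0.0595 with them.

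**Figure D2:**
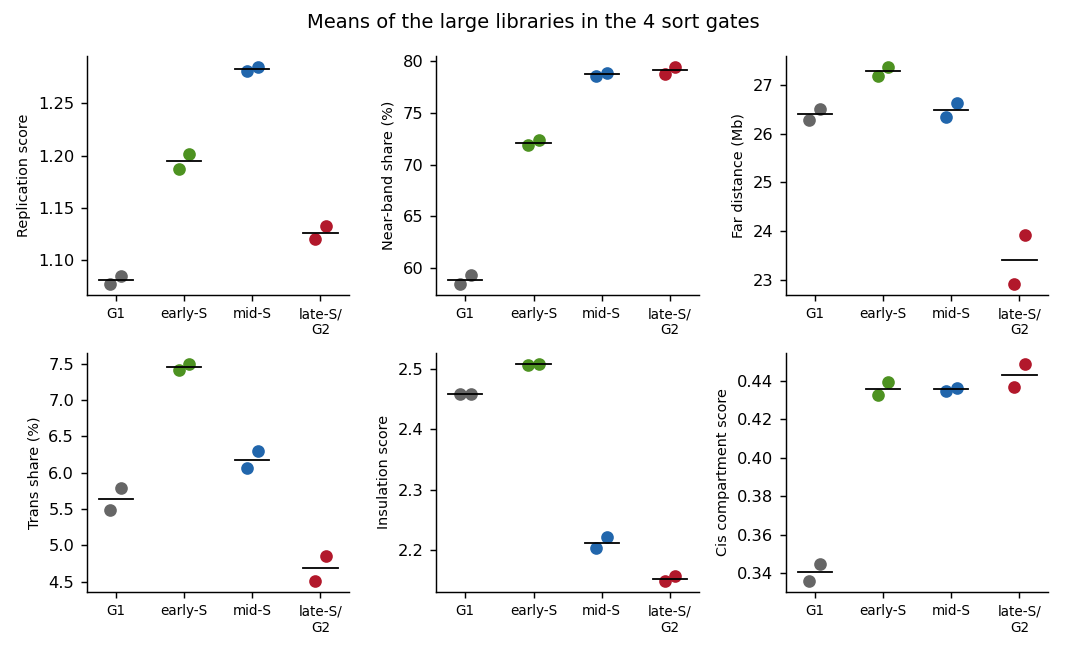
Means of 6 features in the 4 sort gates, in the order G1, early-S, mid-S and late-S/G2; each point is the mean over passing cells of 1 large library and each line the mean of the 2 libraries of a gate, and the vertical axes do not start at 0. The replication score peaks in the mid-S gate at 1.283, insulation has its large step between the early-S gate at 2.508 and the mid-S gate at 2.212, and far distance and trans share are lowest in the late-S/G2 gate, at 23.4 Mb and 4.69%.

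The authors placed each cell in 1 of 5 phase groups, and the groups of the gates differed in kind. Early-S cells were fewer in the late-S/G2 gate, and cells flanking mitosis were nearly all there. Of 326 late-S/G2-gate cells, 253 were called late-S/G2, 30 early-S, 23 pre-M, 17 post-M and 3 G1. Of 262 mid-S-gate cells, 170 were called late-S/G2, 83 early-S, 6 G1, 2 pre-M and 1 post-M. The gate was set by stains, and how the authors drew the groups is not stated. Ranges of the near-band and mitotic-band shares differ strongly between the groups, so these shares are no independent check of them.

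The early-S share was 7.59% in diploid 25 and 10.5% in diploid 26, against 29.7% in diploid 23 and 36.4% in diploid 24. It averaged 9.04% ± 2.05 in the late-S/G2 gate and 33.1% ± 4.68 in the mid-S gate (SD, n = 2 each), a difference of -24.0 points. The late-S/G2 share was 81.0% in diploid 25 and 74.1% in diploid 26, against 65.8% in diploid 23 and 61.6% in diploid 24, a difference of 13.8 points. Libraries did not overlap for any of the 5 phase groups (100% of 5), each with an exact p of 0.333. The shares of a library add up to 100%, so the 5 are not separate results. The early-S and late-S/G2 differences were -10.5 and 3.66 points when the small library was counted on each side. Within that library alone both differences ran the other way. All 5 of its mid-S-gate cells and 5 of its 6 late-S/G2-gate cells were called late-S/G2, and the remaining late-S/G2-gate cell was called early-S.

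Cells flanking mitosis made up a small share of the late-S/G2 gate. Pre-M cells, which the authors placed last in their order, were 5.06% of diploid 25 and 9.26% of diploid 26, against 1.27% of diploid 23 and 0 of 99 cells of diploid 24, which allows a share of up to 3.03%. Post-M cells, placed first, were 5.06% of diploid 25 and 5.56% of diploid 26, against 0.633% of diploid 23 and again 0 of 99 in diploid 24. Pooled over libraries, post-M cells were 5.21% of the late-S/G2 gate (exact 95% interval 3.07% to 8.22%) and 0.382% of the mid-S gate (0.00966% to 2.11%). G1 cells were rare in both gates, at 0.920% of late-S/G2-gate and 2.29% of mid-S-gate cells. The difference in post-M cells was 4.99 points over all depths and 1.72 points in the middle range of contacts named above. That range ended at 400070 contacts, and the 17 post-M cells of the late-S/G2 gate had a median of 454508. The range itself thus left out most of them.

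**Figure D3:**
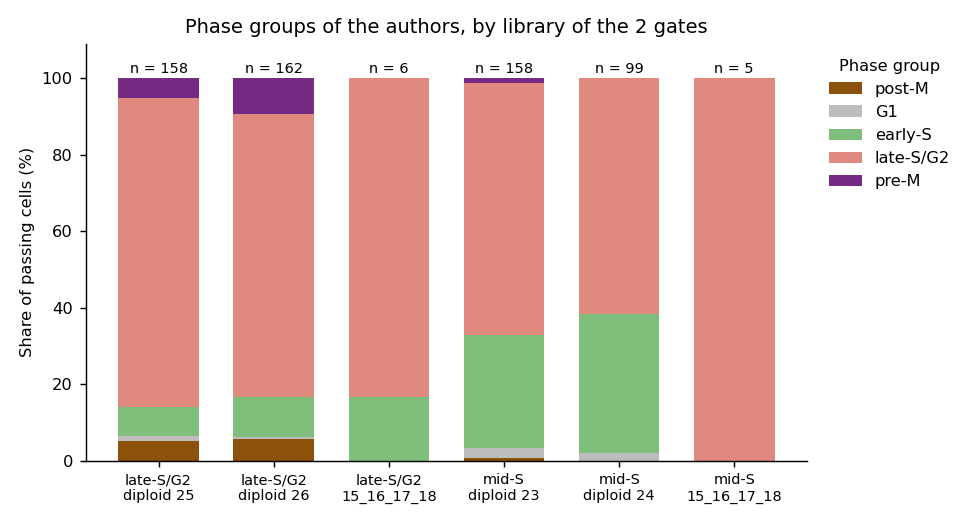
Share of passing cells (vertical axis, percent) in each of the authors' 5 phase groups, stacked by library, with late-S/G2-gate libraries on the left and mid-S-gate libraries on the right and the number of cells above each bar. Early-S cells take 7.59% and 10.5% of the large late-S/G2 libraries and 29.7% and 36.4% of the large mid-S libraries.

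The difference in replication score was as large within the late-S/G2 group alone as over all cells. In that group the score averaged 1.135 over 128 cells of diploid 25 and 1.118 over 120 cells of diploid 26, against 1.287 over 104 cells of diploid 23 and 1.292 over 61 cells of diploid 24. The difference was -0.163, or -2.49 SD of cells, with an exact p of 0.333 and no overlap of libraries. A late-S/G2-gate cell scored lower than a mid-S-gate cell of the same group in 93.2% to 95.6% of pairs. The 182 NoSort cells called late-S/G2 averaged 1.211 with an SD of 0.0986, between the gates and with a wider spread over cells than any large library of the gates, where the SD was 0.0637 to 0.0701.

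Early-S cells of the gates differed as well. Their score averaged 1.197 over 12 cells of diploid 25 and 1.189 over 17 of diploid 26, against 1.297 over 47 of diploid 23 and 1.277 over 36 of diploid 24, a difference of -0.0946 by means and of -0.148 by medians over cells. Those of the late-S/G2 gate were scattered, from 1.048 to 1.438 with an SD over cells of 0.117 and 0.119, against 0.0687 and 0.0868 in the mid-S libraries. Insulation of early-S cells was 2.286 in diploid 25 and 2.257 in diploid 26, against 2.220 in diploid 23 and 2.235 in diploid 24, a difference of 0.275 of a cell SD. The alignment score, whose definition is not given, differed by more, at -0.668 of a cell SD, also without overlap of libraries. Library means did not overlap for 9 of 15 features in this group (60.0%), so the count says little about any 1 of them.

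The step between phase groups inside a library was larger in size in the large late-S/G2 libraries than in the mid-S ones. From the early-S to the late-S/G2 group the mean score changed by -0.0614 in diploid 25 and -0.0707 in diploid 26, against -0.0101 in diploid 23 and 0.0150 in diploid 24. In the late-S/G2 gate the later group scored lower in both libraries, and in the mid-S gate the 2 libraries differed in sign. The steps of the late-S/G2 gate rest on only 12 and 17 early-S cells. The difference between these steps was not tested, since 2 libraries against 2 cannot pass 0.05.

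The authors ranked all 1992 passing cells along the cycle, and the score was followed along that order. The order was made from contacts, and whether the replication score entered it is not stated. If it did, the course of the score along the order is partly set by the order itself. The median rank was 1730 in diploid 25 and 1745 in diploid 26, against 1400 in diploid 23 and 1377 in diploid 24. The early-S group spans ranks 434 to 1315 and the late-S/G2 group ranks 1316 to 1964, so the mid-S gate sat around their border and the late-S/G2 gate deep in the second.

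Cut into 20 bins of the order, mid-S-gate cells climbed to a top in bin 14 and then declined. Their mean score was 1.268 in bin 11, 1.296 in bin 12, 1.320 in bin 13, 1.332 in bin 14, 1.324 in bin 15, 1.289 in bin 16, 1.242 in bin 17, 1.254 in bin 18 and 1.215 in bin 19, and 3 cells in bin 20 averaged 1.084. Through bin 19 these means stayed above the G1-gate percentile of 1.141, and in bin 20 the mean was below it. Late-S/G2-gate cells were at 1.336 in bin 13 and 1.329 in bin 14, where there were only 6 and 7 of them. They then dropped within a few bins, to 1.207 in bin 15, 1.149 in bin 16, 1.137 in bin 17, 1.118 in bin 18, 1.115 in bin 19 and 1.087 in bin 20. The gates were thus level in bins 13 and 14, apart in bins 15 to 19 and level again in bin 20, with 69 late-S/G2-gate and 3 mid-S-gate cells there. Bin 20 held all pre-M cells, at ranks 1965 to 1992. They were 23 of those late-S/G2-gate cells and 2 of those mid-S-gate cells. Before the top, bin 11 held 4 late-S/G2-gate cells at 1.142 and 5 mid-S-gate cells at 1.268.

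**Figure D4:**
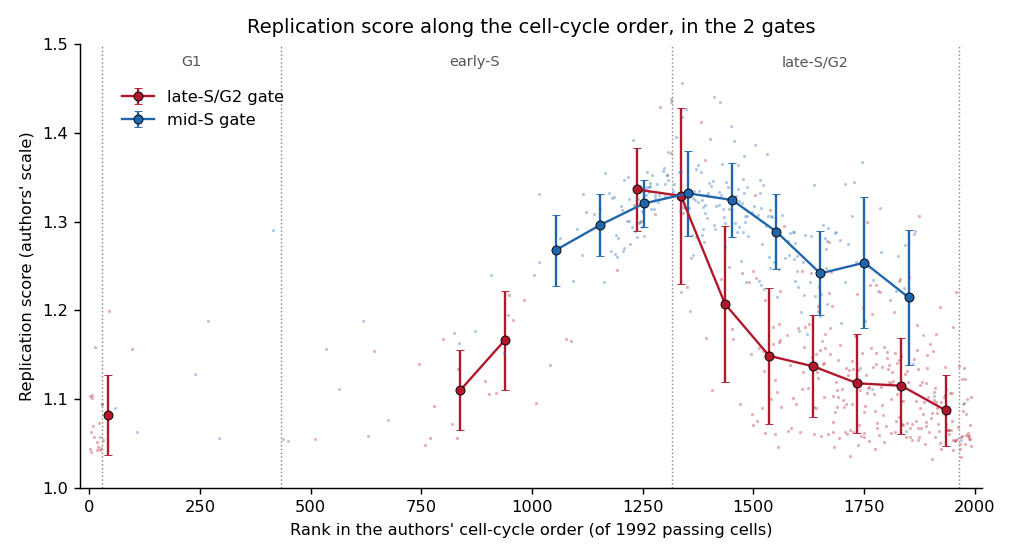
Replication score (vertical axis, authors' scale) against rank in the authors' order (horizontal axis), with late-S/G2-gate cells in red and mid-S-gate cells in blue; small points are cells, large points with bars are means and SDs over cells in 20 bins with at least 5 cells of the gate, drawn slightly apart, and dotted lines are the borders of the phase groups. Both gates stand near 1.33 in bin 14, and by bin 16 the late-S/G2 gate is at 1.149 and the mid-S gate at 1.289.

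In the same bins of the order the gates thus still differed. In bin 16, 32 late-S/G2-gate cells scored 1.149 ± 0.0763 and 31 mid-S-gate cells 1.289 ± 0.0422 (SD over cells). Over the 7 bins with at least 5 cells of each gate, bins 13 to 19, the mean difference was -0.0835, and the late-S/G2 gate was lower in 6 of the 7. Taken library against library, over bins with at least 3 cells of each library and so over a partly different set of bins, it lay between -0.106 and -0.0856. When cells were matched instead on 20 bins of the near-band share, a choice made after the data were seen, the difference was -0.143 over 10 bins and the late-S/G2 gate was lower in 10 of 10. The score thus differed between cells of the gates in the same bins of rank or of near-band share. A bin of rank spans many ranks, and the order may itself use the score. Matching on order is therefore no independent check.

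Beside the score, far contacts were shorter and contacts between chromosomes fewer in the late-S/G2 gate. Library means of the gates did not overlap for 10 of 15 features over all cells (66.7%), including the alignment score with a difference of -0.0555 of a cell SD, so the count says little by itself. Far distance, the mean length of far contacts within a chromosome, was 23.9 Mb in diploid 25 and 22.9 Mb in diploid 26, against 26.3 Mb in diploid 23 and 26.6 Mb in diploid 24. It averaged 23.4 ± 0.697 Mb in the late-S/G2 gate and 26.5 ± 0.194 Mb in the mid-S gate (SD, n = 2 each), a difference of -3.06 Mb, or -1.84 Mb without post-M and pre-M cells. Trans share, the share of contacts between chromosomes, was 4.86% in diploid 25 and 4.51% in diploid 26, against 6.06% in diploid 23 and 6.30% in diploid 24. The difference of -1.49 points was -0.938 of a cell SD, next in size to that of the replication score among the 15 features, and late-S/G2-gate cells had the lower trans share in 73.3% to 82.0% of cell pairs. At matched order, in the same 7 bins, the difference in trans share was -0.223 points, with the late-S/G2 gate lower in 6 of the 7. That in far distance was -0.569 Mb, with the late-S/G2 gate lower in 4 of the 7. Library against library, over a partly different set of bins, the differences were -0.883 to -0.281 points and -0.805 to -0.418 Mb. Matched on near-band share, the differences in trans share and far distance were -1.295 points and -1.82 Mb, each lower in 10 of 10 bins. The near-band share itself differed by -0.618 points at matched order and the cis compartment score by 0.00252.

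Leaving out the cells flanking mitosis turned the sign of some differences. The mitotic-band share, the share of contacts in a band of distances that the authors name mitotic, averaged 11.2% in the late-S/G2 gate and 9.30% in the mid-S gate, yet without pre-M and post-M cells the difference turned to -0.565 points. It turned to -0.365 points by medians over cells as well. The trans compartment score differed by -0.0174 over all cells and by 0.01375 without pre-M and post-M cells. The 17 post-M cells of the late-S/G2 gate had mitotic-band shares of 31.6% to 47.7%, around a median of 43.2%, and the 23 pre-M cells 9.92% to 43.1%, around 18.5%. Their replication scores were low, with medians of 1.063 in post-M and 1.060 in pre-M cells. Post-M cells also had few long contacts, with far distances of 8.73 to 15.3 Mb, and low cis compartment scores of 0.124 to 0.232. The single post-M cell of the mid-S gate fell inside these ranges, with a mitotic-band share of 38.5% and a far distance of 11.9 Mb.

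Among late-S/G2-group cells alone, which leaves such cells out, library means did not overlap for 8 of 15 features (53.3%). This count, too, says little about any 1 of them. The near-band share was 82.9% in both diploid 25 and diploid 26, against 81.4% in diploid 23 and 81.3% in diploid 24, a difference of 1.52 points or 0.887 of a cell SD. Trans share was 4.93% in diploid 25 and 4.81% in diploid 26, against 5.78% in diploid 23 and 5.81% in diploid 24, a difference of -0.924 points. Far distance was 24.6 Mb in diploid 25 and 24.2 Mb in diploid 26, against 26.1 Mb in diploid 23 and 25.98 Mb in diploid 24, a difference of -1.62 Mb. The SD of libraries was 0.278 Mb in the late-S/G2 gate and 0.105 Mb in the mid-S gate. The mitotic-band share of these cells was 8.19% in the late-S/G2 gate and 8.27% in the mid-S gate, a difference of -0.0814 points.

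Compartments, the segregation of active from silent chromatin, had higher scores in cis in late-S/G2-gate cells of this group. The cis compartment score was 0.480 in diploid 25 and 0.488 in diploid 26, against 0.457 in diploid 23 and 0.452 in diploid 24, a difference of 0.0292 or 0.331 of a cell SD. Over all cells the difference was 0.00728, and without post-M and pre-M cells, whose median scores in the late-S/G2 gate were 0.179 and 0.255, it was 0.0365. It did not hold in every comparison. Within the early-S group the cis difference was -0.00648, at 0.403 in the late-S/G2 gate and 0.410 in the mid-S gate, without overlap of libraries. Matched on near-band share over all cells it was -0.0133, with the late-S/G2 gate lower in 5 of 10 bins. The trans compartment score overlapped, at 0.345 and 0.343 in the late-S/G2 libraries and 0.330 and 0.345 in the mid-S libraries.

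Of the 2 loop enrichments, 1 separated the gates in this group. The EE loop enrichment, read as log2 and as early-early by its name, was 0.64 in diploid 25 and 0.67 in diploid 26, against 0.61 in diploid 23 and 0.56 in diploid 24, within the late-S/G2 group. The difference of 0.07 was 0.292 of a cell SD, and it was 0.04 without diploid 24 and 0.09 without diploid 23. With the small library counted on each side it was 0.03. Within the early-S group the EE difference ran the other way, at -0.04, also without overlap of libraries. Over all cells at matched order it was 0.0549 with 20 bins and 0.0295 with 40, but -0.0133 with 10. Matched on near-band share it was 0.0416. The LL enrichment was 0.71 and 0.68 in the late-S/G2 libraries, against 0.72 and 0.71 in the mid-S libraries, with overlap. Insulation overlapped too, at 2.183 in diploid 25 and 2.199 in diploid 26, against 2.194 in diploid 23 and 2.217 in diploid 24, with a difference of -0.0147. The alignment score, whose definition is not given, differed by -0.0109 here, and by 0.0288 with the small library counted.

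**Figure D5:**
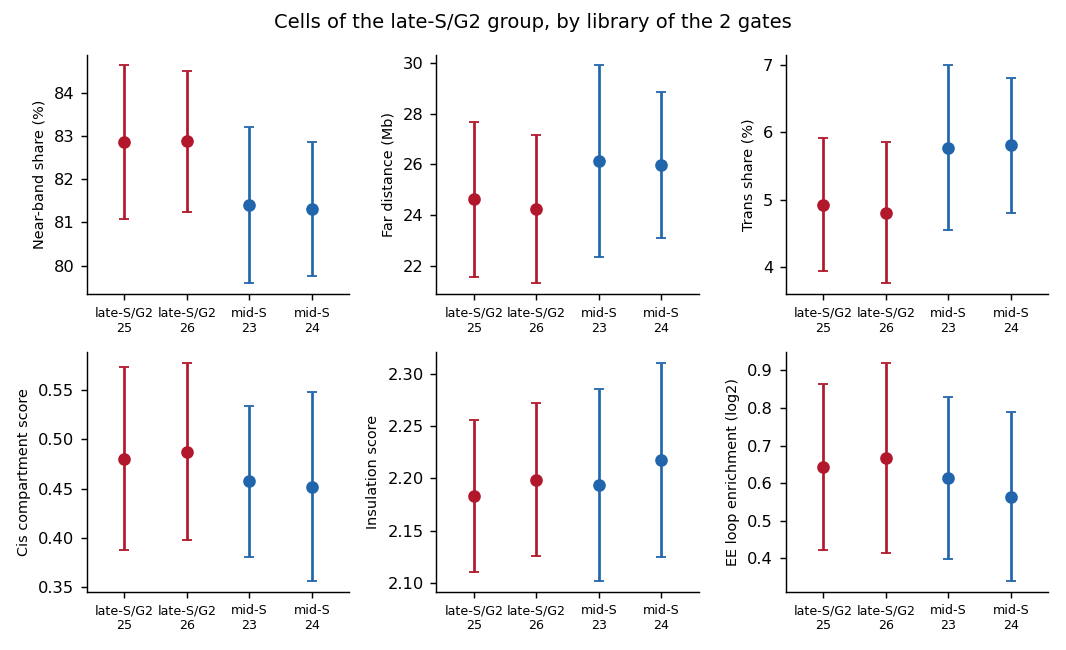
Mean and SD over cells (bars) of 6 features in cells called late-S/G2, by library, with late-S/G2-gate libraries on the left in red and mid-S-gate libraries on the right in blue; the vertical axes do not start at 0. Libraries separate by gate for near-band share, far distance, trans share, cis compartment score and EE loop enrichment, and overlap for insulation, and the bars of single cells overlap throughout.

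Within the late-S/G2 group, some features varied with the replication score from cell to cell differently in the gates, and others alike. Contacts per cell had the negative rho given above in each large library. The duplicated share had rho of -0.17 and -0.36 in the late-S/G2 libraries and -0.32 and -0.27 in the mid-S libraries. Far distance had 0.24 and 0.26 in the late-S/G2 libraries and 0.20 and 0.14 in the mid-S libraries. Spearman's rho between score and near-band share was -0.14 over 128 cells of diploid 25 and -0.19 over 120 of diploid 26, against -0.42 over 104 of diploid 23 and -0.59 over 61 of diploid 24. Between score and trans share it was 0.37 in diploid 25 and 0.36 in diploid 26, against 0.07 in diploid 23 and 0.10 in diploid 24. The LL enrichment had rho of -0.14 and -0.21 in the late-S/G2 libraries and 0.11 and 0.19 in the mid-S libraries. High scores thus went more with contacts between chromosomes in the late-S/G2 gate and more with fewer near contacts in the mid-S gate. These are descriptions of cells that share a library and a lane, and the difference between gates was not tested.

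Over all cells, contacts, digestion and duplication differed little between the gates. Contacts per cell averaged 305006 in the late-S/G2 gate and 288009 in the mid-S gate. The share without digestion averaged 36.3% in the late-S/G2 gate and 37.0% in the mid-S gate, and the duplicated share 2.99% in the late-S/G2 gate and 2.86% in the mid-S gate. Libraries of the gates overlapped for each of these measures. Beyond the range of contacts given above, their part in the other differences was not tested.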

How the data were processed

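Single-cell Hi-C reads were aligned with Bowtie2 to mm9, per the submitters' processing notes. The deposited table holds 1 cell per line. Per the file headers, the total of contacts is a count. Deposited shares (near band, mitotic band, trans, undigested, duplicated) are each a fraction, shown in percent, and band limits and denominators are not stated. Each deposited score (replication, insulation, compartments, alignment, coverage deviation) has an undefined scale. Loop enrichments were deposited without a stated scale, and their values look like log2. Far distance is in bp, shown in Mb.

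Cells were joined to libraries by batch number, and all 780 cells listed in both gates matched the cell list. A library is a sample within a gate. Means over cells of libraries with at least 10 cells were compared by an exact two-sided permutation test, with Benjamini-Hochberg adjustment over 15 features or 5 phase groups (no adjusted p was below 0.333). Shares have exact Clopper-Pearson 95% intervals, and a count of 0 allows 3 cells over the total. Matching used 20 bins with at least 5 cells of each gate. Alternatives were medians, minimums of 5 and 20 cells, a contact range, pooled cells, 10 and 40 bins, leave-one-out and leaving out post-M and pre-M cells. Matching on near-band share, the lane with both gates, and leaving out G1 cells too were added after the data were seen. The gates, features and comparisons were chosen with earlier results of these data known. Every feature was compared, no gene was to be named, and cell type markers did not apply. The procedure was tested on simulated data. Tools were matplotlib 3.10.9, scipy 1.17.1, pandas 2.3.3, numpy 2.4.6 and Python 3.11.15.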

Additional observations from a re-analysis of the deposited data

How the results depend on the processing

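Of 37 results recomputed under alternatives, 29 kept their direction in every setting run. Among them were the replication score over all cells and in both phase groups, and the share of each phase group between libraries. Within the lane that held both gates, with 6 and 5 cells, the early-S and late-S/G2 shares ran the other way. Over all cells the replication score differed by -0.147 to -0.191 on its own scale. The replication score at matched order was -0.0835 with 20 bins, -0.0818 with 10, -0.106 with 40 and -0.143 when matched on near-band share. With a minimum of 5 cells, 4 of 15 features did not overlap over all cells, against 10 with a minimum of 10, as the small library then counts on each side. Reversed over all cells were the mitotic-band share by medians (-0.365 points), without post-M and pre-M cells (-0.565) and without G1 cells too (-0.563), the alignment score with a minimum of 5 cells (0.0290), the trans compartment score without post-M and pre-M cells (0.01375) and without G1 cells too (0.0122), LL enrichment by medians (0.00056) and with a minimum of 5 cells (0.0143), and coverage deviation by medians (0.0319). Reversed within the late-S/G2 group were the alignment score with a minimum of 5 cells (0.0288), LL enrichment by medians (0.0248) and with a minimum of 5 cells (0.0152), and the trans compartment score by medians (-0.00264) and in the contact range (-0.00702). Leaving out 1 library at a time gave the trans compartment score differences from -0.00107 to 0.0137 in that group. The cause of these changes was not tested. A minimum of 20 cells and the contact range gave no value in the early-S group, since the late-S/G2 libraries held 12 and 17 such cells, and under 10 each in the contact range. Taking the batch as the unit gives the same libraries. No paired analysis was possible because the gates share only 1 library number. Precision is limited by the number of libraries, 2 per gate. The difference in post-M share was 4.99 points over all cells and 1.72 in the contact range. That range left out most post-M cells of the late-S/G2 gate, and the part of depth was not tested.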

Other observations

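Cells called post-M and pre-M were also found among NoSort cells, 11 and 3 of them. The median replication score of NoSort cells was 1.058 in post-M and 1.037 in pre-M cells, and their median mitotic-band share was 42.7% and 20.9%. Trans share was higher in the 17 post-M cells of the late-S/G2 gate, with a median of 3.25%, than in the 11 of NoSort, with a median of 0.759%. Quality moved with it. The post-M cells of the late-S/G2 gate had a median of 454508 contacts, 30.8% without digestion and a duplicated share of 4.38%, and those of NoSort 190306 contacts, 42.4% without digestion and a duplicated share of 6.45%. These cells came from different libraries, and the part of quality in the difference was not tested.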
